A study of Mus musculus with 4 samples.

Results

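Chromosome 14 was represented on the array by 1510 probes of 41174 (3.67%), taken as all non-control probes whose listed position lies on that chromosome. They were ordered by start and divided at 20 Mb, which put 191 probes in the proximal stretch and 1319 in the rest. The chromosome and its boundary were selected on the measured difference between the mutant lines Dll1-5 and Dll1-3, because the proximal stretch was higher in Dll1-5. That difference is therefore described without a test, and the test over both lines against wild type is given apart from it. A probe passed the filter where either RNA gave signal well above background on each array of at least 1 line, and 1196 of the 1510 did so, 157 of them below 20 Mb and 1039 beyond.

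Messenger RNA was measured in neurospheres, the floating colonies that neural stem cells form in serum-free medium supplemented with EGF. The groups were neurospheres of the Dll1 mutant line Dll1-5, of the Dll1 mutant line Dll1-3, and of wild type, all from 129/Sv mice crossed with C57BL/6 and untreated. Each of 4 two-colour arrays carried mutant RNA beside wild-type RNA, and the 2 arrays of each line had opposite dyes. RNA was pooled from 3 preparations, and the design speaks of biological replicates that were each dye-swapped. With 4 arrays this was read as 1 replicate per line (n = 2 lines), so that p-values measure only the spread between these lines. Whether the 2 arrays of a line shared a pool is not settled by the labels, so their spread may be technical or may include that between pools. The labels state neither which part of Dll1 each line lacks nor the age at which cells were taken. The labels name a wild type beside each line, and whether both were the same RNA is not settled by them.

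Dll1 is a membrane ligand of Notch receptors, and Notch signalling keeps neural progenitors undifferentiated through the Hes and Hey repressors. Mouse chromosomes carry the centromere at one end, from which positions are counted, so low positions on chromosome 14 are those nearest to it. The chromosome carries genes of many kinds, among them Top2b, Rb1, Bmp4, Ednrb, a cluster of ribonucleases and a cluster of granzymes and mast cell proteases, and genes that are neighbours on it need share no function. Positions are those of the array files, in which no genome build is named. Unless a difference between lines is named, a value is the log2 of mutant signal divided by wild-type signal.

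The check of the targeted gene gave Dll1, which lies on chromosome 17, at -1.65 and -1.64 in Dll1-5 and at -3.31 and -3.22 in Dll1-3, lower than wild type on all 4 arrays. Neural stem cell markers had summed signals of 90700 in Dll1-5, 81500 in Dll1-3 and 132000 and 142000 in the wild types beside them. Of 12 such markers, 12 were well above background in wild-type RNA on all 4 arrays and 10, not Pax6 or Gfap, in mutant RNA. Of 8 microglia and blood markers 4 were so in both RNAs, with summed signals of 891 in Dll1-5, 865 in Dll1-3 and 851 and 863 in the wild types beside them. Of 8 endothelial and fibroblast markers 5 were so, with summed signals of 3420 in Dll1-5, 3630 in Dll1-3 and 5880 and 5710 in the wild types, and the part of such cells in the results was not tested. In bulk RNA, fewer cells of a type and less RNA per cell cannot be told apart. Each channel had between 80.2% and 82.2% of probes well above background, and precision is limited by there being 4 arrays.

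The promoters of 4 genes of the proximal stretch are shown because these genes stood among those furthest apart between the lines. Of the 12 genes named below as higher in Dll1-5, 10 had an entry among the RefSeq promoters, and these are the brightest of the 10. Each run is the 250 bases before the gene's start on the gene's own strand in build GRCm38.p6. Capitals mark matches, on either strand, to the TATA box (TATAAA), the CCAAT box (CCAAT), the GC box (GGGCGG), the E-box (CACGTG) or the cyclic AMP response element (TGACGTCA). Top2b encodes DNA topoisomerase II beta, and its bases lie at chr14:16364956-16365205 on the plus strand. Rpl15, a protein of the large ribosomal subunit, has them at chr14:18270987-18271236 on the minus strand. Rtraf, an RNA transcription and export factor that the array files list as 2700060E02Rik, has them at chr14:19823824-19824073 on the minus strand. Ppp3cb, a catalytic subunit of the phosphatase calcineurin, has them at chr14:20546574-20546823 on the minus strand.
Top2b: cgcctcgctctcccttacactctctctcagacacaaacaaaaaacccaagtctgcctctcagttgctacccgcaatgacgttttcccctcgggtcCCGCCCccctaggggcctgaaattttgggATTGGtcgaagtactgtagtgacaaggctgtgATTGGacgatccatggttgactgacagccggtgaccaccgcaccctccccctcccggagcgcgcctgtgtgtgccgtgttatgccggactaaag
Rpl15: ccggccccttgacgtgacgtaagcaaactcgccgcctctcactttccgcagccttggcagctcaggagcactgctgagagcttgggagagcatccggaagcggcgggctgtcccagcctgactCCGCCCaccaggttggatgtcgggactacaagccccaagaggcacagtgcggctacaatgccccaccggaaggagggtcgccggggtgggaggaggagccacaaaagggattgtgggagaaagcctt
Rtraf: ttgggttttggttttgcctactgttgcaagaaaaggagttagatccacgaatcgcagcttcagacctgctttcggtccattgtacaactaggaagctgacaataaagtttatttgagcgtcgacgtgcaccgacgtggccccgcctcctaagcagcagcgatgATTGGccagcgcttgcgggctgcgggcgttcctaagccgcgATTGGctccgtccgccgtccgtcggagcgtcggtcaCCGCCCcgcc
Ppp3cb: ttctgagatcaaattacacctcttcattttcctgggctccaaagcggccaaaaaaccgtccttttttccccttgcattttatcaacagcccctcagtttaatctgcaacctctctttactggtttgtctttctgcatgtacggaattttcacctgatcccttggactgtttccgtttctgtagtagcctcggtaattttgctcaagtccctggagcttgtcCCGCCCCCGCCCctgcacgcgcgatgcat
GGGCGG was found in all 4, with 2 adjoining matches in Ppp3cb, and in 32.7% of 32851 mouse promoters of the same length. CCAAT, printed as its reverse complement, was found in Top2b and Rtraf and in 33.8% of promoters. TATAAA (12.4% of promoters), CACGTG (6.02%) and TGACGTCA (1.55%) were found in none of the 4, and no match overlapped one of another motif. The 4 promoters were 57.6%, 63.6%, 58% and 48.4% G or C, in the order printed.

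Along the proximal stretch, Dll1-5 stood above Dll1-3 for most probes. The median difference between the lines was 0.24 over the 157 passing probes below 20 Mb (quartiles 0.01 and 0.62), against 0.03 over the 1039 beyond (quartiles -0.10 and 0.24) and 0.00 over all 34434 passing probes of the array. Taken by dye orientation, the proximal median was 0.22 between the replicate 1 arrays and 0.24 between the replicate 2 arrays. A dye effect shared by arrays of the same orientation cancels in each, so their closeness says little about the dyes. Both Dll1-5 arrays exceeded both Dll1-3 arrays for 89 of 157 proximal probes (56.7%), for 334 of 1032 probes beyond 20 Mb with values on all arrays (32.4%) and for 27.1% of all probes. The reverse order held for 14 proximal probes (8.92%), 187 beyond (18.1%) and 25.3% of all probes. With arrays centred on their median in place of loess, the first of these counts was 29 of 157. The share over all probes was not taken under that centring. These counts restate the contrast on which the stretch was chosen and support nothing.

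The larger differences had the same lean. A non-overlapping difference of 1 or more on the log2 scale, a doubling, was seen in 19 proximal probes (12.1%) and 43 beyond (4.17%), against 2.32% of all probes. A difference of -1 or less was seen in 1 proximal probe, that of Abhd6, and in 4 beyond 20 Mb (0.388%), those of Pbk, Haus4, Cdca2 and Dock5, against 1.54% of all probes. Cdca2, a regulator of phosphatase on mitotic chromosomes, fell outside the rule for named genes and is given because its count is small. Its values were 0.87 and 1.06 in Dll1-5 and 1.93 and 2.15 in Dll1-3.

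The difference was larger among bright probes, a split added after the data were seen. Among the 59 proximal probes with a mean log2 signal of 8 or more, the median difference was 0.65, and 51 (86.4%) had both Dll1-5 arrays above both Dll1-3 arrays, a share of 51.3% among bright probes beyond 20 Mb and of 37.2% among bright probes of the whole array. The median difference was 0.17 over 340 such probes beyond 20 Mb and 0.03 over 13237 such probes of the whole array. Among the 98 dimmer proximal probes it was 0.09, where the offset used in the background correction compresses ratios.

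Among bright proximal probes the line medians lay on opposite sides of wild type. These probes had a median of 0.28 in Dll1-5 and -0.14 in Dll1-3 relative to wild type, where bright probes of the whole array had -0.01 and -0.03. On the single Dll1-3 arrays their median was -0.03 and -0.10. Bright probes beyond 20 Mb were split in the same way, at 0.05 in Dll1-5 and -0.11 in Dll1-3. Bright probes from 0 to 5 Mb and from 5 to 10 Mb had medians above wild type in both lines. Dll1-5 stood at 1.44 and 0.28 there and Dll1-3 at 0.28 and 0.21. Over all passing proximal probes the medians were 0.15 in Dll1-5 (0.19 and 0.16 on its arrays) and 0.01 in Dll1-3 (0.04 and 0.01 on its arrays), where Dll1-3 was thus near the 0.01 of all probes. Beyond 20 Mb they were 0.01 in Dll1-5 and -0.01 in Dll1-3.

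Read channel by channel, the difference lay in the mutant RNA. At the same dye, mutant signal below 20 Mb was 0.31 and 0.30 higher (median log2, replicate 1 and replicate 2) on the Dll1-5 arrays than on the Dll1-3 arrays. Wild-type signal differed by 0.02 and 0.03 between the same arrays. Beyond 20 Mb the mutant channel differed by 0.05 and 0.06 and the wild-type channel by 0.01 and 0.00.

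**Figure D1:**
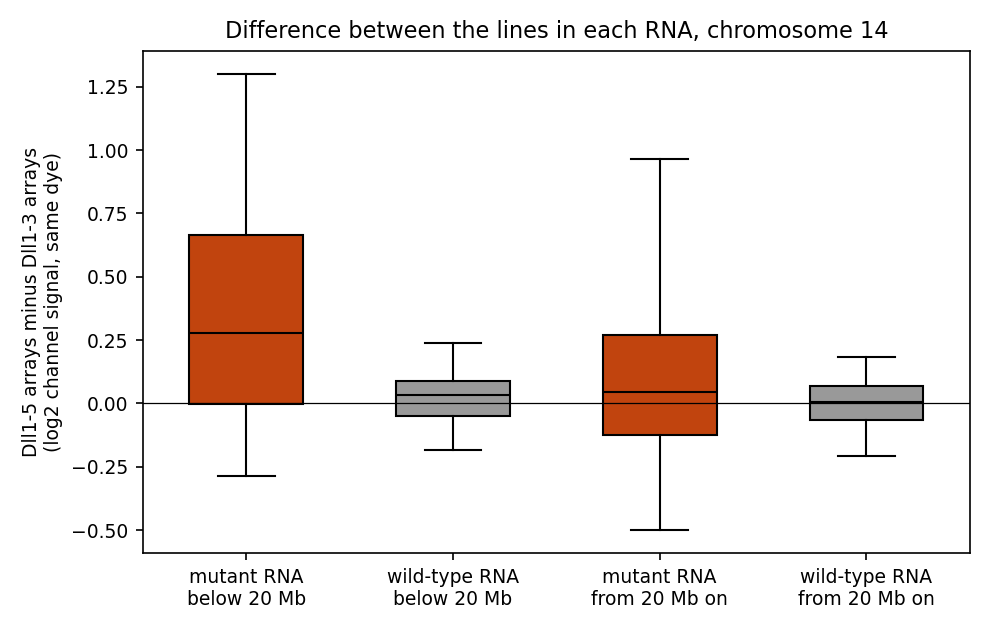
Difference between Dll1-5 arrays and Dll1-3 arrays in log2 channel signal at the same dye, averaged over both dye orientations, for passing chromosome 14 probes with values on all arrays. Boxes span the quartiles with the median as a line and whiskers reach the 5th and 95th percentiles; the mutant RNA below 20 Mb (median 0.276, n = 157) stands above 0 and the wild-type RNA beside it is centred at 0.035.

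By position, the difference was not limited to the first 20 Mb. In bins of 5 Mb it was 0.42 for the first bin (20 probes), 0.07 from 5 to 10 Mb (24), 0.15 from 10 to 15 Mb (37) and 0.23 from 15 to 20 Mb (76). From 20 to 35 Mb the bin medians were 0.05, 0.08 and 0.05. The next bin, from 35 to 40 Mb, stood at 0.28 over 20 probes, above the bin from 15 to 20 Mb. From 45 to 65 Mb the medians were -0.01, -0.06, -0.02 and -0.04. From 65 Mb on they varied, with 0.27 from 65 to 70 Mb (45 probes), 0.27 from 90 to 95 Mb (26 probes) and 0.37 from 115 to 120 Mb (39 probes), but 0.01 from 100 to 105 Mb (9 probes) and -0.02 from 105 to 110 Mb (3 probes).

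Among bright probes the same bins stood further apart. The first bin had a median difference of 1.23 over 7 probes, and the bins up to 20 Mb had 0.46, 0.59 and 0.57. From 45 to 65 Mb the medians lay between -0.13 and -0.01. From 65 to 70 Mb 18 bright probes had a median of 0.80, with Dll1-5 at 0.71 and Dll1-3 at -0.08. From 115 to 120 Mb 14 bright probes had a median of 0.78, with Dll1-5 at 0.22 and Dll1-3 at -0.41. All 13 bright probes from 95 to 100 Mb had a positive difference, with a median of 0.54.

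**Figure D2:**
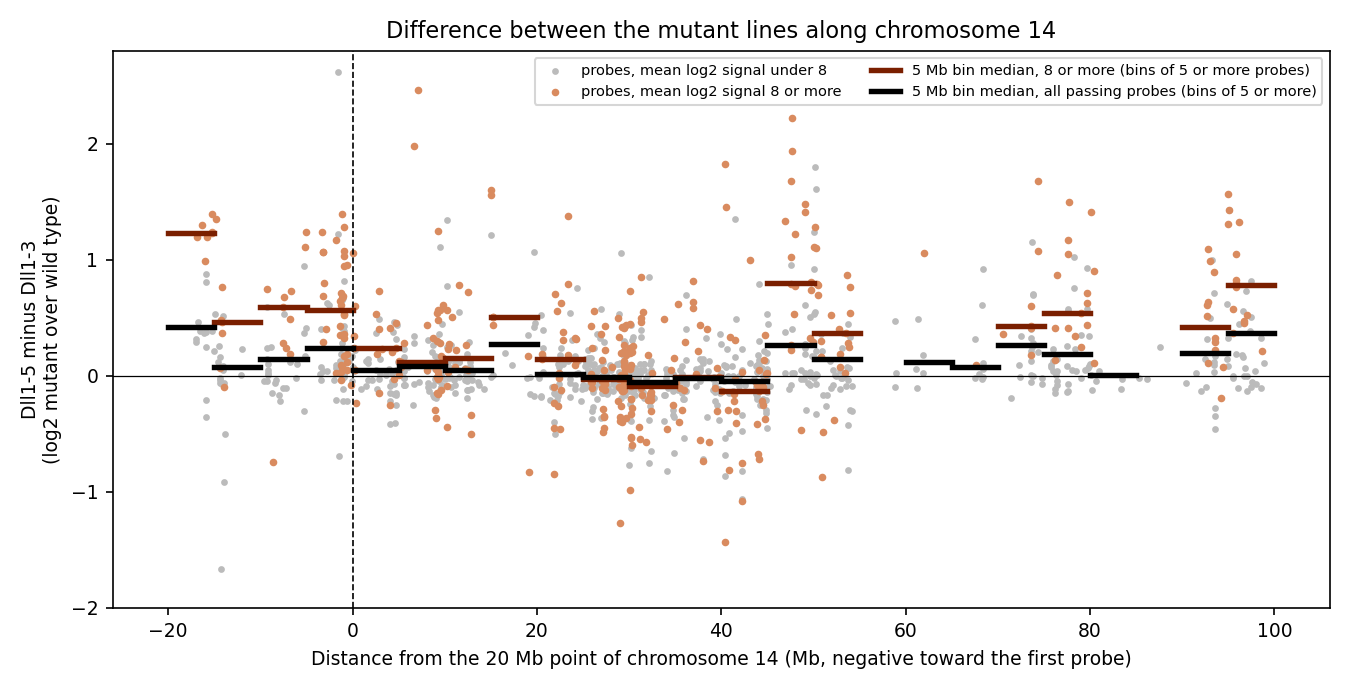
Dll1-5 minus Dll1-3 in log2 mutant over wild type (y axis) for each passing chromosome 14 probe by distance from the 20 Mb point in Mb (x axis). Points are probes, orange where the mean log2 signal was 8 or more, and bars are medians of 5 Mb bins of 5 or more probes, black over all passing probes and brown over those of signal 8 or more; black bars left of the dashed line are all above 0, those from 45 to 65 Mb lie below 0, and those from 65 Mb on lie above 0, by 0.01 only in the bin from 100 to 105 Mb.

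**Figure D3:**
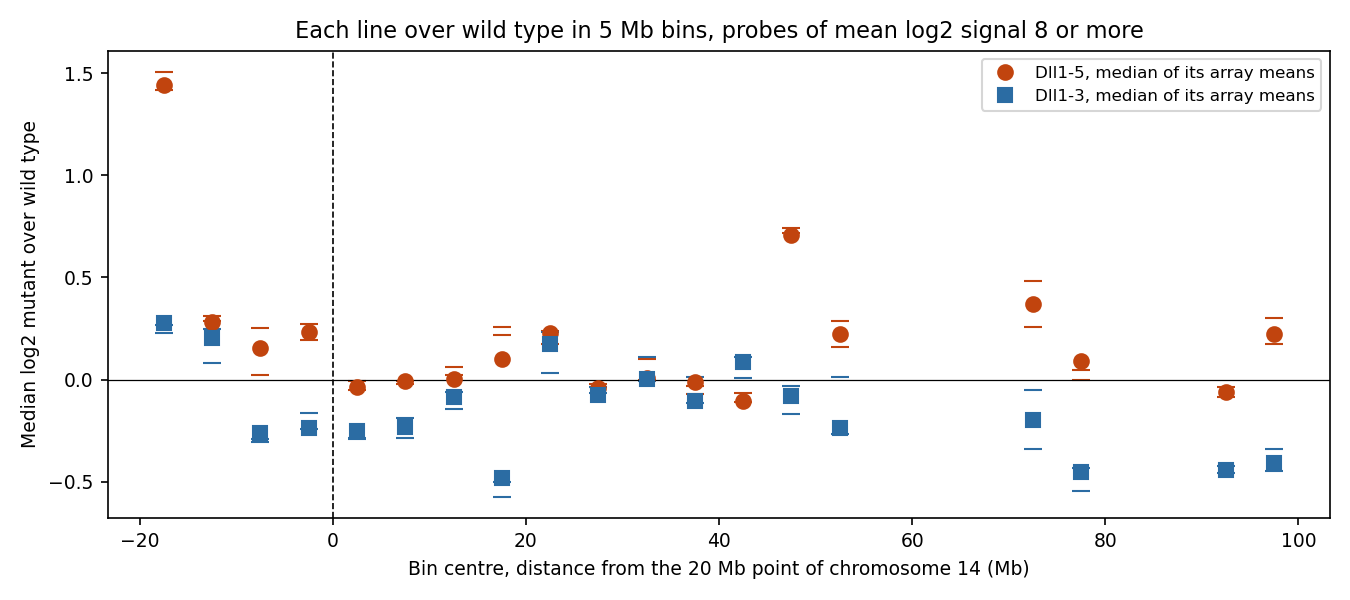
Median log2 mutant over wild type of each line in 5 Mb bins of chromosome 14 (bins of 5 or more probes with a mean log2 signal of 8 or more), by bin centre in Mb from the 20 Mb point. Large symbols are the line, ticks its 2 arrays; Dll1-5 lies above Dll1-3 in every bin drawn except that from 60 to 65 Mb, where Dll1-5 is at -0.10 and Dll1-3 at 0.08.

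Set beside the first 20 Mb of the other 19 chromosomes with probes, whose median differences ran from -0.08 to 0.33, the 0.24 of chromosome 14 ranked second of 20. The share of probes with both Dll1-5 arrays above both Dll1-3 arrays ran from 13% to 62.5% there. Over whole chromosomes the other medians ran from -0.07 to 0.07, and that of chromosome 14 was 0.05. A proximal stretch with a positive difference was therefore not particular to chromosome 14.

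The probes nearest the centromere formed a group of their own kind. Below 5.5 Mb 23 passing probes had a median of 0.92 in Dll1-5 and 0.29 in Dll1-3, and 21 of them had both Dll1-5 arrays above both Dll1-3 arrays, an order that 27.1% of all probes had. They carry clone and predicted-gene names, and several names recur at loci far apart, so near-identical copies may share signal and their separate levels are uncertain. The probes of 4930555G01Rik, whose function is not annotated there, gave differences from 0.39 to 1.39. Its probe at 4782656 stood at 1.51 and 1.38 in Dll1-5 and at 0.07 and 0.03 in Dll1-3. The probe of 2610042L04Rik at 5227840 stood at 1.61 and 1.69 in Dll1-5 against 0.15 and 0.44 in Dll1-3. The probes of Gm10413 disagreed, with differences from -0.36 to 0.81 among 5. Without the 11 proximal probes whose names recur over 0.5 Mb apart, the proximal median difference was 0.19.

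Counted once per gene, with the brightest probe standing for the gene and clone names left out, 59 proximal genes had a median difference of 0.41, where 496 genes beyond 20 Mb had 0.04 and 16734 genes of the array had 0.00. Both Dll1-5 arrays lay above both Dll1-3 arrays for 39 of the 59 (66.1%), and below them for 5 (8.47%), where 28.5% of all genes fell on each side.

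Saysd1, a gene that the array files list as 1810063B07Rik, was the furthest apart of the proximal genes. Its probe at 18439899 to 18439958 stood at 1.98 and 1.94 in Dll1-5, above wild type, and at -0.59 and -0.73 in Dll1-3, below wild type. The difference of 2.62 came with a wild-type channel that differed by 0.46 between the lines' arrays and a mutant channel that differed by 3.08.

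Among signalling enzymes of the stretch, Camk2g, the gamma subunit of the calcium and calmodulin dependent kinase II, lay below wild type in both lines. It stood at -0.79 and -0.74 in Dll1-5 and at -2.09 and -2.01 in Dll1-3, a difference of 1.28 at 19096296 to 19096355. Ppp3cb stood at 0.05 and -0.23 in Dll1-5 and at -1.37 and -1.60 in Dll1-3, a difference of 1.39. Its 3 other probes gave differences from 0.01 to 0.67, so probes of one gene disagreed in size. Pxk, a membrane protein with a PX domain and a kinase-like domain, stood at 0.31 and 0.25 in Dll1-5 and at -0.51 and -0.46 in Dll1-3.

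The genes chosen as highest in Dll1-5 also included some of the nucleus and of translation. Nr1d2, the nuclear receptor REV-ERB beta that represses clock genes, stood at 0.41 and 0.17 in Dll1-5, above wild type, and at -0.86 and -1.03 in Dll1-3, below it. Top2b, whose promoter is printed above, stood at -0.14 and -0.31 in Dll1-5 and at -1.45 and -1.48 in Dll1-3, a difference of 1.24. Rtraf stood at 0.61 and 0.88 in Dll1-5 and at -0.48 and -0.36 in Dll1-3. Rpl15 stood at 1.05 and 0.98 in Dll1-5, and at 0.04 and -0.16 in Dll1-3, near wild type. Its other probe gave a difference of 1.06, though ribosomal protein genes have near-identical pseudogenes and their signal may be shared.

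Ngly1, the cytosolic enzyme that removes N-glycans from misfolded proteins, stood at 0.37 and -0.18 in Dll1-5 and at -0.82 and -1.21 in Dll1-3. The arrays did not overlap between lines, but its other probe gave a difference of 0.17 only. Zswim8, a substrate receptor of a ubiquitin ligase listed as 2310021P13Rik, stood at 0.20 and 0.16 in Dll1-5 and at -0.78 and -0.92 in Dll1-3, and its 2 other probes gave 0.95 and 1.07. Vcl, the focal adhesion protein vinculin, stood at -0.17 and -0.26 in Dll1-5 and at -1.19 and -1.13 in Dll1-3, with 0.13 at its other probe. Fam149b stood at 0.28 and 0.01 in Dll1-5 and at -0.56 and -0.58 in Dll1-3, and its 3 other probes gave 0.01 to 0.19.

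Only 5 proximal genes had both Dll1-5 arrays below both Dll1-3 arrays by their brightest probe. Abhd6, a hydrolase of the endocannabinoid 2-arachidonoylglycerol, stood at -1.65 and -1.28 in Dll1-5 and at 0.08 and 0.33 in Dll1-3, a difference of -1.67 inside the stretch where most probes leaned the other way. Kcnk5, an acid-sensitive potassium channel of the leak type, stood at 0.12 and -0.16 in Dll1-5 and at 0.58 and 0.76 in Dll1-3, and its wild-type channel was well above background on 1 of 2 arrays of each line. Myoz1, a Z-disc protein of muscle, Synpr, the synaptic vesicle protein synaptoporin, and Adk, adenosine kinase, had differences of -0.22, -0.21 and -0.08.

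**Figure D4:**
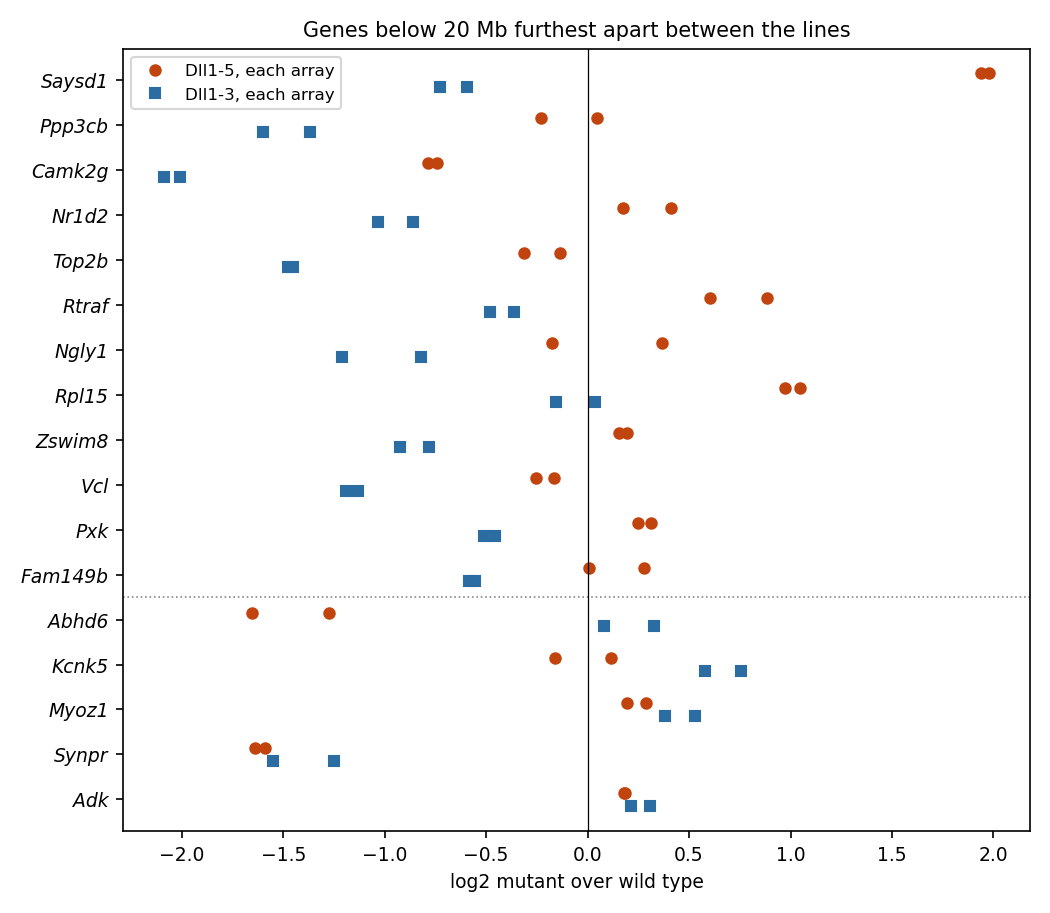
Log2 mutant over wild type on each array for the 12 genes below 20 Mb highest in Dll1-5 minus Dll1-3 (above the dotted line) and the 5 genes with the reverse order (below it). Circles are Dll1-5 arrays and squares Dll1-3 arrays; Saysd1 has its Dll1-5 arrays at 1.98 and 1.94 and its Dll1-3 arrays at -0.59 and -0.73.

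Across the 20 Mb point the bin median fell from 0.23 (15 to 20 Mb, 76 probes) to 0.05 (20 to 25 Mb, 56 probes). Among bright probes it fell from 0.57 to 0.24. The single genes nearest to that point varied on both sides of it. Just inside it, Adk differed by -0.08, Ap3m1, a subunit of the AP-3 adaptor of vesicle transport, by 0.12 (-0.05 with median centring), Vcl by 0.95 and Camk2g by 1.28. Just outside it, Kat6b, a histone acetyltransferase listed as Myst4, differed by 1.06, Dupd1 by 0.08, Samd8 by 0.34 and Vdac2, a channel of the outer mitochondrial membrane, by 0.60. Kat6b has probes on both sides: those at 19882663 and 19885977 gave -0.05 and 0.17 with signals near background, and the brighter one at 20036202 gave 1.06. The 3 other probes of Ap3m1 gave differences from -0.22 to 0.19, and the 2 other probes of Samd8 gave 0.04 and 0.24.

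Beyond 20 Mb, single genes were also far apart between the lines, though none of those named by as much as Saysd1. Cacna2d3, an auxiliary subunit of voltage-gated calcium channels, stood at 0.42 and 0.44 in Dll1-5 and at -2.12 and -1.95 in Dll1-3, a difference of 2.46 at 27042089 to 27042148. Itm2b, an integral membrane protein that interacts with the amyloid precursor protein, stood at 0.32 and 0.32 in Dll1-5 and at -1.61 and -1.63 in Dll1-3, and its other probe gave a difference of 2.22. Rb1, the retinoblastoma protein that restrains entry into S phase, lies close by and stood at 0.50 and 0.59 in Dll1-5 and at -1.22 and -1.05 in Dll1-3, with 0.41 at its other probe. By their brightest probes these genes were above wild type in Dll1-5 and below it in Dll1-3. At the other probe the mean over both lines was -1.29 for Itm2b and 0.21 for Rb1. For these genes opposite sides thus hold at the brightest probe only.

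Scara3, a scavenger receptor-like protein, stood at -0.11 and -0.02 in Dll1-5 and at -1.93 and -1.85 in Dll1-3. Klf12, a zinc finger repressor, stood at 0.37 and 0.26 in Dll1-5 and at -1.32 and -1.40 in Dll1-3, and its 2 other probes gave 0.21 and 1.07. Ccser2, listed as Gcap14, stood at 1.01 and 0.96 in Dll1-5 and at -0.56 and -0.66 in Dll1-3, and its 2 other probes gave 1.21 and 1.56.

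The genes furthest in the other direction were above wild type in both lines and higher in Dll1-3, apart from Serp2. Pbk, a mitotic kinase, stood at 1.09 and 1.12 in Dll1-5 and at 2.56 and 2.53 in Dll1-3, a difference of -1.43. Haus4, a subunit of the augmin complex that branches spindle microtubules, stood at 0.77 and 0.29 in Dll1-5 and at 2.04 and 1.56 in Dll1-3. Esco2, the acetyltransferase that establishes sister chromatid cohesion, stood at 1.05 and 1.31 in Dll1-5 and at 2.04 and 2.05 in Dll1-3. Pck2, the mitochondrial phosphoenolpyruvate carboxykinase, stood at 0.65 and 0.80 in Dll1-5 and at 1.67 and 1.75 in Dll1-3. Dock5, a guanine nucleotide exchange factor for Rac, had differences of -1.06 at its brightest probe and of -0.34 and 0.05 at the others. Serp2, a protein of the translocation apparatus listed as 2810032E02Rik, lay below wild type, at -1.87 and -2.06 in Dll1-5 and at -1.04 and -1.15 in Dll1-3.

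The second comparison asked which chromosome 14 genes differed from wild type when Dll1 was mutated, whichever the line. With limma on the 2 line means, 0 of the 1196 passing probes of the chromosome had an adjusted p under 0.05, and 0% of the 34433 probes tested over the array did, the smallest adjusted p being 0.0756. At an unadjusted p under 0.05 the limma fit gave 128 probes higher (10.7%) and 160 lower (13.4%), against 11.7% and 15.2% of all probes. Proximal probes had 26 higher (16.6%) and 12 lower (7.64%), and those beyond 20 Mb had 102 higher (9.82%) and 148 lower (14.2%). Without the Dll1-3 replicate 1 array 79 probes of the chromosome passed, and without the Dll1-5 replicate 2 array 95, shares of 6.61% and 7.94% where all probes had 6.98% and 8.24%.

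By size, 12 chromosome 14 probes (1.01%) were at least 2-fold higher on all 4 arrays and 28 (2.35%) at least 2-fold lower, against 1.41% and 2.25% of all probes. In Dll1-5 alone, 51 (4.29%) were at least 2-fold higher on both arrays and 32 (2.69%) at least 2-fold lower, against 2.56% and 3.02%. In Dll1-3 alone, 24 (2.02%) were higher and 76 (6.39%) lower by that measure, against 3.99% and 5.18%. Below 20 Mb the counts were 19 higher (12.1%) and 5 lower (3.18%) in Dll1-5 and 3 higher (1.91%) and 9 lower (5.73%) in Dll1-3. Both lower shares were near the 3.02% and 5.18% of all probes. The proximal probes 2-fold higher on all 4 arrays were the 2 of Gng2, and those 2-fold lower were single probes of Ptprg, Cadps, Synpr and Thrb. Thrb, a thyroid hormone receptor outside the naming rule, stood at -1.47 and -1.02 in Dll1-5 and at -1.87 and -1.43 in Dll1-3.

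Gng2, a gamma subunit of heterotrimeric G proteins, had the highest mean over both lines on the chromosome. It lies in the proximal stretch at 18238312 to 18238371 and stood at 2.77 and 2.71 in Dll1-5 and at 2.76 and 2.67 in Dll1-3, so the lines overlapped at this probe. Over both lines it averaged 2.73 with an SD of 0.02 (n = 2; limma adjusted p = 0.0756). Its other probe stood at 1.91 and 1.92 in Dll1-5 and at 2.06 and 2.19 in Dll1-3, without overlap, with a mean of 2.02.

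Several of the other higher genes act in mitosis or in proliferating cells. Pbk had a mean of 1.83 (SD 1.01, n = 2 lines; limma adjusted p = 0.145) and Esco2 one of 1.61 (SD 0.61; adjusted p = 0.101). Dlgap5, a spindle protein listed as Dlg7, stood at 1.23 and 1.30 in Dll1-5 and at 1.76 and 1.68 in Dll1-3. Gnl3, the nucleolar protein nucleostemin of proliferating stem cells, stood at 1.32 and 1.20 in Dll1-5 and at 1.48 and 1.34 in Dll1-3.

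Other genes above wild type on every array had varied functions. Trim35, a RING finger protein, stood at 1.80 and 1.80 in Dll1-5 and at 2.71 and 2.52 in Dll1-3. Gch1, the first enzyme of tetrahydrobiopterin synthesis, stood at 1.47 and 1.61 in Dll1-5 and at 1.61 and 1.83 in Dll1-3. Lpar6, a lysophosphatidic acid receptor listed as P2ry5, stood at 2.03 and 2.03 in Dll1-5 and at 0.90 and 1.12 in Dll1-3. Nufip1, an assembly factor of small nucleolar ribonucleoproteins, stood at 1.86 and 1.89 in Dll1-5 and at 1.09 and 1.09 in Dll1-3. Clu, the secreted chaperone clusterin of astrocytes, stood at 2.22 and 2.00 in Dll1-5 and at 0.79 and 0.53 in Dll1-3. In these last 3 the Dll1-5 arrays lay above the Dll1-3 arrays.

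The lowest genes included a metabolic enzyme, a glial marker and a receptor. Glud1, the mitochondrial glutamate dehydrogenase, stood at -2.54 and -2.36 in Dll1-5 and at -3.28 and -3.06 in Dll1-3, with a mean of -2.81 (SD 0.51, n = 2 lines; limma adjusted p = 0.0756). Ndrg2, a marker of astrocytes, stood at -2.07 and -2.13 in Dll1-5 and at -2.44 and -2.48 in Dll1-3. Ednrb, the endothelin receptor of neural crest and glia, stood at -2.03 and -2.14 in Dll1-5 and at -2.41 and -2.44 in Dll1-3, and its other probe had a mean of -2.10. Rgcc, a regulator of the cell cycle listed as 1190002H23Rik, stood at -2.04 and -1.99 in Dll1-5 and at -2.89 and -2.89 in Dll1-3. Each had a lower value on every array, and in all 4 the Dll1-3 arrays lay below those of Dll1-5.

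Pcdh17, a protocadherin of neurons, stood at -2.10 and -2.12 in Dll1-5 and at -2.57 and -2.58 in Dll1-3. Itih3, a hyaluronan-binding protein of the extracellular matrix, stood at -2.46 and -2.29 in Dll1-5 and at -2.61 and -2.36 in Dll1-3. Cmtm5, a membrane protein of the MARVEL type, stood at -1.65 and -1.73 in Dll1-5 and at -1.72 and -1.84 in Dll1-3. Prxl2a, a peroxiredoxin-like protein listed as 5730469M10Rik, stood at -2.27 and -2.02 in Dll1-5 and at -1.55 and -1.08 in Dll1-3.

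For some low genes the probes disagreed. Ptprg, a receptor tyrosine phosphatase, stood at -2.95 and -2.71 in Dll1-5 and at -3.26 and -2.68 in Dll1-3 by a probe listed as 5430405N12Rik, and at a mean of -0.18 by its other probe. Its mutant signal was well above background on 1 of the 2 Dll1-5 arrays. Wdfy2, an endosomal protein, had a mean of -2.18 by one probe and of -0.18 by the other. The 2 other probes of Pcdh17 had means of -0.75 and -0.09. Among the higher genes, the other probe of Dlgap5 had a mean of 0.41 and that of Gch1 one of 0.61, and those of Trim35 had 0.20 and 0.81. Mean values over both lines from such probes hold for the probe and not for the gene as a whole.

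**Figure D5:**
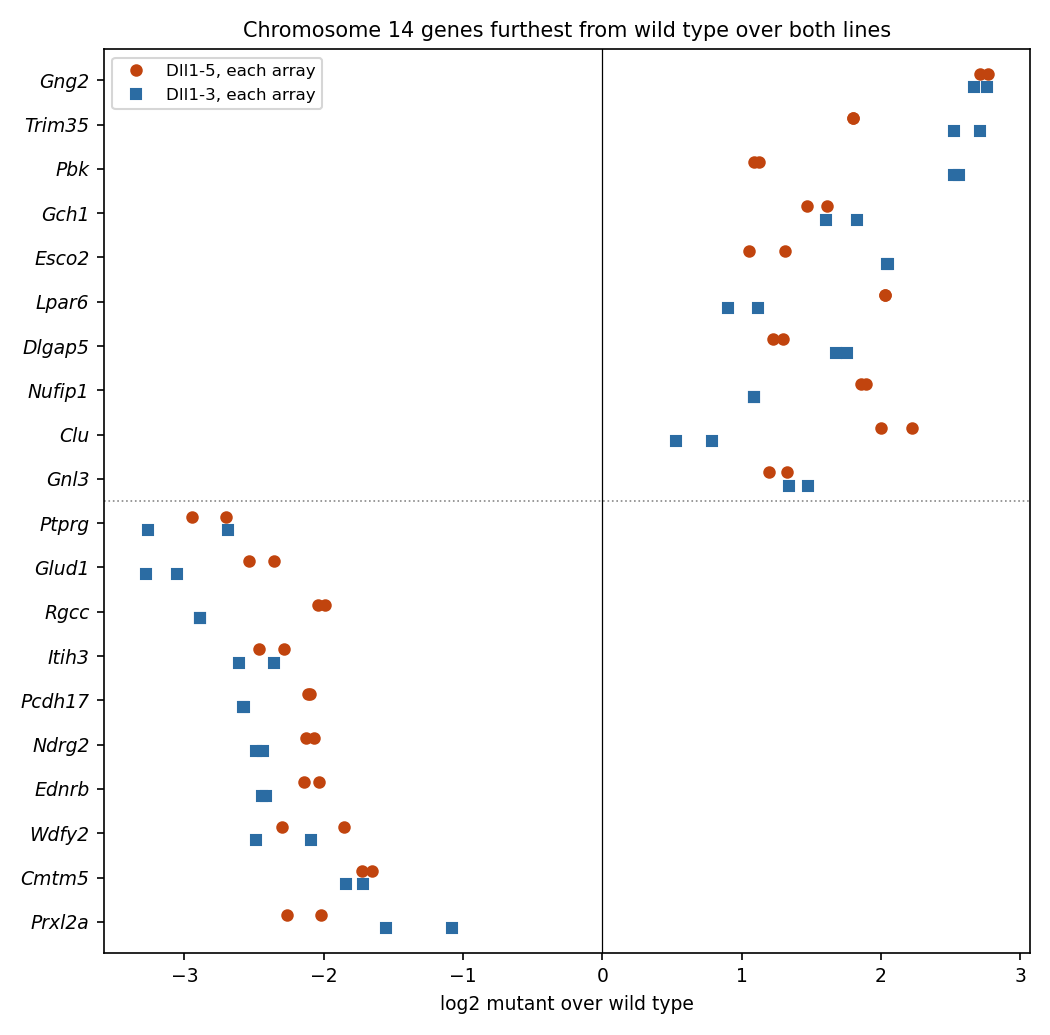
Log2 mutant over wild type on each array for the 10 highest (above the dotted line) and 10 lowest (below it) chromosome 14 genes by the mean over both lines, among those of one sign on all 4 arrays. Circles are Dll1-5 arrays and squares Dll1-3 arrays; Gng2 has all 4 arrays between 2.67 and 2.77 and Glud1 all 4 between -3.28 and -2.36.

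The chromosome's genes were also read by role, in 11 lists. No list member had an adjusted p under 0.05 in the limma fit, so counts at an unadjusted p under 0.05 are given. Over all genes of the array, taken by their brightest probe, 13.9% were higher and 17.4% lower by that measure, and the median over both lines was 0.01. Of 32 genes of the cell cycle, DNA repair and chromosomes, 23 were measured on chromosome 14, and 11 were higher and 2 lower, beside 13.9% and 17.4% of all genes, with a median of 0.69 over both lines, 0.54 in Dll1-5 and 0.65 in Dll1-3. Pbk, Esco2, Dlgap5 and Haus4, given above, were its furthest members.

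Neuronal genes had 29 measured of 33 listed, 2 higher and 12 lower, beside 13.9% and 17.4% of all genes, and a median of -0.23. Pcdh17, given above, and Synpr were among the furthest. Synpr stood at -1.64 and -1.59 in Dll1-5 and at -1.25 and -1.55 in Dll1-3, while its other probe had a mean of 0.035. Cadps, which primes dense-core vesicles for release, stayed under the background criterion in the mutant RNA of both lines, where its signal was at least 2.83-fold lower than wild type for Dll1-5 and at least 2.92-fold for Dll1-3 (limma adjusted p = 0.0756), though its other probe had a mean of -0.19. Such bounds set the brighter RNA against the dim probe's own signal or, where higher, the faintest signal of any probe that counted as above background. Pcdh9, another protocadherin, stood at -0.60 and -1.90 on the Dll1-5 arrays, which disagreed, and at -2.26 and -2.07 on the Dll1-3 arrays.

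Signalling ligands and receptors had 28 measured of 37 listed, 1 higher and 6 lower, the lower share being near the 17.4% of all genes, and a median of -0.02. Fzd3, a Wnt receptor of axon guidance listed as D930050A07Rik, stood at -1.33 and -1.50 in Dll1-5 and at -1.29 and -1.53 in Dll1-3, while its 2 other probes had means of -0.17 and 0.12. Mapk8, the stress kinase JNK1, stood at -1.21 and -1.27 in Dll1-5 and at -2.07 and -1.98 in Dll1-3 by its brightest probe, while its 3 other probes had means from -0.13 to 0.00. Transcription factors and nuclear regulators had 30 measured of 31 listed, 1 higher and 4 lower, beside 13.9% and 17.4% of all genes. Their median was -0.08. Sox21, a repressor of progenitor genes in the nervous system, stood at -1.90 on 1 Dll1-5 array, its value on the other being an outlier spot left out, and at -2.90 and -3.08 in Dll1-3. Its 2 other probes had means of -1.12 and -0.06. Zfp219, a zinc finger protein, had a mean of -0.93, and Pspc1, a paraspeckle protein, one of 0.80.

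Metabolic and mitochondrial genes had 30 measured of 36 listed, 6 higher and 5 lower, beside 13.9% and 17.4% of all genes. Their median was 0.19 over both lines, and their median difference between the lines, 0.27, was the largest of the 11 lists. Of the 30, 8 lay below 20 Mb. Timm23, a subunit of the inner membrane import channel, stood at 1.02 and 1.02 in Dll1-5 and at 1.00 and 0.97 in Dll1-3, and the lysosomal protease Ctsb at -0.72 and -0.84 in Dll1-5 and at -1.16 and -1.28 in Dll1-3, with a mean of -0.08 at its other probe. Cytoskeleton and adhesion genes had 25 measured of 27 listed, 2 higher and 6 lower, beside 13.9% and 17.4% of all genes. Their median was -0.11. Farp1, a Rac exchange factor of dendrites, stood at -1.02 and -1.09 in Dll1-5 and at -1.85 and -1.90 in Dll1-3. Fermt2, the integrin activator kindlin-2, had a mean of -0.95. Rap2a, a small GTPase, stood at -0.11 and 0.09 in Dll1-5 and at -1.41 and -1.46 in Dll1-3, a difference of 1.42 at both of its probes.

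The clusters of immune and secreted genes lay near wild type. Ribonucleases of the A superfamily had 6 measured of 18 listed, 0 higher and 1 lower, beside 13.9% and 17.4% of all genes. The lower was Rnase1, at -1.40 and -1.36 in Dll1-5 and at -2.03 and -1.85 in Dll1-3. Rnase10, Rnase6 and Ang4 had means of 0.12, -0.06 and -0.05. Granzymes and mast cell proteases had 10 measured of 15 listed, with 0 in either direction and a median of -0.01, and the means of Mcpt8, Gzme, Cma1 and Gzmc lay between -0.05 and 0.11 at signals near background. T cell receptor and lymphocyte genes had 4 measured of 10, with 0 in either direction, and Dad1, a subunit of oligosaccharyltransferase, was the brightest at a mean of 0.18.

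Cardiac and muscle genes had 8 measured of 9 listed, 1 higher and 1 lower, beside 13.9% and 17.4% of all genes. Myoz1 had a mean of 0.35, Synpo2l one of 0.17 and Tnnc1, cardiac troponin C, one of 0.17. Proteasome subunits had 4 measured of 6 listed, with 0 in either direction. Psmd6, a subunit of the regulatory particle and the only one below 20 Mb, stood at 0.49 and 0.54 in Dll1-5 and at -0.15 and -0.19 in Dll1-3. Psmb5, Psme1 and Psmb11 had differences between the lines of -0.26, 0.24 and 0.00.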

How the data were processed

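The members, gene lists and the rule for named genes were chosen with earlier results of these data known. The authors deposited each spot's intensity in both channels, and a log10 ratio of Cy5 over Cy3, from the scanner software Agilent Feature Extraction 8.1.1.1 (per the submitters' processing notes). The series also has a deposited value table, which was log10 wild type over mutant by its slope against the scanner ratios and whose centring stays unknown, with column medians of -0.02 and 0.01 for the Dll1-5 arrays and -0.03 and 0.01 for the Dll1-3 arrays.

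Signals were corrected with normexp (offset 50), which compresses the ratios of dim probes, and normalised within arrays by loess (span 0.3) using limma 3.58.1 (R 4.3.3). Control spots (2256 of 43790) and outlier spots (27 to 115 per array) had weight 0 and were left out. Every ratio was expressed as log2 of mutant over wild type, and spots of a probe were averaged. Channels were compared after loess and Aquantile. The arrays of a line were averaged, and the line means tested by lmFit and eBayes in limma, with 1 residual degree of freedom. P-values were adjusted by Benjamini-Hochberg at 0.05. The procedure was run on simulated data with noise of the size seen between dye-swapped arrays. That run had no further spread between lines, so it does not show how the threshold performs here. Single lines and their difference had no test. With 1 array per slide, slide could not be tested as a batch.

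Of the 1510 probes, 1173 matched a RefSeq gene (GRCm38.p6), 807 by accession, 250 by symbol and 116 by synonym; 4 of these lay on another chromosome there. The others kept the file's name.

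Genes were named from the brightest passing probe, clone names passed over: below 20 Mb the 12 highest and up to 6 lowest differences without overlap, and 6 each beyond; the 10 highest and 10 lowest means of one sign on all 4 arrays; the 4 nearest genes on each side of 20 Mb; up to 4 per list; and Dll1. A gene that the rule names is not reported here. Alternatives covered background, scaling, filters, outliers, 1 probe per gene, each array left out, the boundary and the design.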

Additional observations from a re-analysis of the deposited data

Results flagged for a closer look

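For 15 of the named genes both Dll1-5 arrays lay on one side of wild type and both Dll1-3 arrays on the other. This holds for the brightest probe of each gene and need not hold for its other probes. The difference between the lines was not tested. Dll1-5 was above wild type and Dll1-3 below it for Saysd1 (Dll1-5 minus Dll1-3 of 2.62), Cacna2d3 (2.46), Itm2b (1.94), Klf12 (1.68), Rb1 (1.68), Ccser2 (1.60), Nr1d2 (1.24), Rtraf (1.17), Zswim8 (1.03), Pxk (0.77), Fam149b (0.71), Psmd6 (0.68), Cma1 (0.34) and Ang4 (0.32). Abhd6 was the one with the reverse order, at -1.67. One of the Dll1-5 arrays of Fam149b and of Cma1 stood within 0.01 of wild type, so their order rests on a value at 0. For Cma1 the mutant channel differed by -0.08 between the lines' arrays and the wild-type channel by -0.42. Its difference thus lay in the wild-type RNA, and its other probe gave -0.08.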

How the results depend on the processing

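The proximal difference stayed positive under every alternative run, and its size varied with the background correction, the filter, the boundary and the choice of probes. The proximal median of Dll1-5 minus Dll1-3 (0.239), that beyond 20 Mb (0.035) and their distance (0.204) were 0.185, 0.028 and 0.157 without background correction, 0.315, 0.056 and 0.259 with an offset of 10, 0.406, 0.059 and 0.348 with the scanner's ratio, and 0.399, 0.05 and 0.349 with the deposited value table. They were 0.125, 0.02 and 0.105 without a filter, 0.354, 0.052 and 0.302 for probes above background in all channels, and 0.645, 0.169 and 0.477 for brighter probes, an alternative chosen after seeing the data. With 1 probe per gene the proximal median was 0.377 and the distance 0.344, and without recurring names 0.188 and 0.154. With the boundary at 10 Mb the values were 0.303, 0.044 and 0.259, with 29 non-overlapping probes. The bins below 10 Mb hold 20 and 24 passing probes, whereas the 89 below 20 Mb were of 157. At 15 Mb the far median was 0.041 and the count 46, at 25 Mb the proximal median 0.168 and the distance 0.135, and at 30 Mb 0.119, 0.025 and 0.094 with 136 probes. Counts at other boundaries are thus of other numbers of probes, and 27.1% of all probes had that order at any boundary. The count was 29 of 157 with median centring, where the share over all probes was not taken. It was 51 of 59 for brighter probes (86.4%), where bright probes of the whole array had 37.2%.

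Relative to wild type, the proximal medians of Dll1-5 and Dll1-3 (0.145 and 0.014) were 0.21 in Dll1-5 with an offset of 10, 0.304 and 0.068 with the scanner's ratio, 0.299 and 0.066 with the value table, 0.096 in Dll1-5 without a filter, 0.224 in Dll1-5 above background in all channels, and -0.01 in Dll1-3 with 1 probe per gene. By boundary they were 0.47 and 0.251 at 10 Mb, 0.079 in Dll1-3 at 15 Mb, 0.1 in Dll1-5 at 25 Mb, and 0.061 and -0.014 at 30 Mb. Beyond 20 Mb Dll1-5 (0.009) was at 0.013 with an offset of 10, 0.05 with the scanner's ratio and with the value table, 0.003 without a filter, 0.022 above background in all channels, where Dll1-3 (-0.008) was at -0.028, 0.015 with 1 probe per gene, and 0.013 and 0.014 with boundaries at 10 and 15 Mb.

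The count past the limma threshold (0) was 54 with an offset of 10 and 37 with the scanner's ratio, shares of 4.52% and 3.09% where all probes had 4.91% and 2.78%. It was 346 (29.1%) with arrays as separate samples, 292 (24.6%) when these had a replicate block and 295 (24.8%) when the line was a random block, where all probes had 33%, 28.1% and 28%. The replicate number is the dye orientation, and same-numbered deviations correlated at 0.678 between the lines over all probes. The count 2-fold on all 4 arrays (40) was 94 with the scanner's ratio, 91 with the value table and 19 with median centring. Shares over all probes were not taken under these 3 settings, so the changes are not read as particular to the chromosome.

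Leaving out each array gave 0.239 to 0.261 for the proximal difference, 0.034 to 0.066 beyond, 0.18 to 0.225 for their distance, 102 to 108 non-overlapping probes, 0 to 95 past the threshold and 42 to 47 at 2-fold. Line medians ran from 0.145 to 0.192 (Dll1-5) and 0.009 to 0.037 (Dll1-3) below 20 Mb, and from 0.009 to 0.021 and -0.032 to -0.008 beyond. A setting that left out an array treated a line's other array as its mean. Fewer arrays make the non-overlap and 2-fold criteria easier to meet for every probe. Shares over all probes were not taken for those 2 counts. Of 89 values of named genes under 11 alternatives, 1 changed sign: Ap3m1, at -0.047 with median centring. The causes of these shifts were not tested.

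Values rest on 2 lines, each read as 1 replicate, and signals near background bound what dim probes can show. Probe positions have no named build, and 337 members kept the file's name.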
